A study of Drosophila melanogaster with 2 samples.

Results

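The genes that lay out the body axis of the fruit fly embryo were examined as targets of the protein encoded by CG5953. They comprise 33 transcription factor genes, chosen by symbol from the maternal, gap, terminal, pair-rule, segment-polarity, Hox and head patterning classes, out of 13968 protein-coding genes of the Ensembl annotation. All 33 were found there, 1 of them, h (hairy), under its newer symbol hry (FBgn0001168). The values come from ChIP-seq, for which the CG5953-eGFP fusion was pulled down from whole Drosophila melanogaster embryos of the strain CG5953-GFP, collected at 0 to 24 h, in 2 biological replicates. Flies of this strain carry an insertion that targets CG5953, and the antibody recognised GFP in chromatin sonicated to 200 to 800 bp. Both replicates belong to the same group, so every value describes that group and no condition was compared. Whole embryos of all embryonic ages were mixed, so a peak does not show in which cells or at which stage the protein was bound. The labels do not say whether untagged CG5953 protein was also present.

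In the fly, maternal factors such as Bicoid and Caudal set up gradients along the egg, gap genes read them as broad bands, and pair-rule genes turn the bands into periodic stripes. Segment-polarity genes then fix the borders of each segment, and Hox genes give segments their identity. Most of these genes are controlled by enhancers that can lie many kilobases from the promoter, and many are silenced by Polycomb proteins in cells that do not use them.

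Peaks are positions where sequenced DNA piled up, and the conservative set is a list of 3016 peaks whose ranks repeated between the replicates. The authors gave each peak a signal value with no stated unit, and the median signal of the set was 83.0. The optimal set, also made from both libraries, held 3305 peaks, and the lists thresholded within replicate 1 and replicate 2 held 1975 and 1663 peaks. Peak lists hold no reads, so the depth is unknown. A gene was called bound at its promoter when a summit, the highest point of a peak, was at most 500 bp from a transcription start site (TSS) of the annotation. Shares carry exact Clopper-Pearson 95% intervals, which cover only the number of genes or peaks counted. No test was made, since there is 1 group and the genes were named with results of these data known.

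The sequences under 5 of the 9 promoter summits are examples of the bound DNA of the patterning genes. They include every promoter summit with a match to GCCAT, a motif described further on. Those of h, cnc and Dll, without such a match, are not shown, so the examples do not represent all promoter peaks. Each is the 201 bp centred on a conservative summit, from the Release 6 genome (dm6), plus strand, 5′ to 3′, and capitals mark matches to the motifs described further on.
bcd promoter, chr3R:6759508-6759708: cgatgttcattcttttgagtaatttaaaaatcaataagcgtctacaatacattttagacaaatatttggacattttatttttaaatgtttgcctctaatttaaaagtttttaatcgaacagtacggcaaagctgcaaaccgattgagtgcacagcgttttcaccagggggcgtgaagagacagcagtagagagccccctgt
fkh promoter, chr3R:28585409-28585609: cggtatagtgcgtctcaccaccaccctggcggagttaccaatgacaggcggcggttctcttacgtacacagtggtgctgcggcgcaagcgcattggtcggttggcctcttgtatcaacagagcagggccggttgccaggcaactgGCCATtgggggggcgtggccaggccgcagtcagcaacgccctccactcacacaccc
cad promoter, chr2L:20770461-20770661: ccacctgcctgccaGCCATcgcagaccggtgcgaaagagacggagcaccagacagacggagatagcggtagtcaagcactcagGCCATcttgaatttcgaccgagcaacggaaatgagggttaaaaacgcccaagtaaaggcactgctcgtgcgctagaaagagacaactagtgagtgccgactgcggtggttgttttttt
odd promoter, chr2L:3607075-3607275: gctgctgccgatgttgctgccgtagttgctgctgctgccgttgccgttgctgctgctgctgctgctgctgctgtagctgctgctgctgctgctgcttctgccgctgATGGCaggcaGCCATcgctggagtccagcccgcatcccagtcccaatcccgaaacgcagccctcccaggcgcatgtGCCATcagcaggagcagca
Dfd promoter, chr3R:6791411-6791611: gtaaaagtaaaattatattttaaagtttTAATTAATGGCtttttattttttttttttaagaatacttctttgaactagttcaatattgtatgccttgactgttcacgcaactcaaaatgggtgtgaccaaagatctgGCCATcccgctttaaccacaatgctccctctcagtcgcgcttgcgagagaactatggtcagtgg
The fkh and odd sequences were rich in G and C, at 63.2% and 64.7%. The bcd and Dfd sequences held 36.8% and 35.8%, near the median of 37.8% over all conservative summits. The odd sequence is largely a run of gctgct repeats, which differs from the other promoter sequences shown.

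Another 4 sequences lie away from any promoter of the patterning gene they are listed with. They are the strongest peaks found inside or within 10 kb of the 33 genes but over 500 bp from their start sites, by signal the 3 highest and the highest inside a gene.
Antp intron, chr3R:6920086-6920286: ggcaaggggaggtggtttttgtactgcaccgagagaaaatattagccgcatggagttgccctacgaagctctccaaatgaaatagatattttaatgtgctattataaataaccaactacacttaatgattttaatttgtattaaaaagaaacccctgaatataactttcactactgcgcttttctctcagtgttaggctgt
between slp1 and slp2, chr2L:3832429-3832629: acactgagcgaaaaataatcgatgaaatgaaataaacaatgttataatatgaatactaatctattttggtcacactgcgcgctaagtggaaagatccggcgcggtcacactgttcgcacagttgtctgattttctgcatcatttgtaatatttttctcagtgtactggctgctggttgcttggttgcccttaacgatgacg
beyond the 3′ end of abd-A, chr3R:16798749-16798949: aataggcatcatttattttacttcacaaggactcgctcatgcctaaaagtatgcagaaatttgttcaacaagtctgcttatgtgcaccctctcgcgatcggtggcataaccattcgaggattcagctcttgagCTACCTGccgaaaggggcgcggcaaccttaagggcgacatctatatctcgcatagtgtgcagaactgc
upstream of btd, chrX:9687692-9687892: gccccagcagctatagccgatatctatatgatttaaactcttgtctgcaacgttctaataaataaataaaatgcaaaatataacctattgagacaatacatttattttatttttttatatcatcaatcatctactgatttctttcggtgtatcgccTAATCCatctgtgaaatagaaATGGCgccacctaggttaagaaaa
Their shares of G and C were 36.8%, 40.3%, 47.3% and 31.8%, all below those of the fkh, odd and cad promoters. The bcd and Dfd promoters, at 36.8% and 35.8%, lay within the range of these 4. The abd-A sequence held a match to the Zelda heptamer, and the btd sequence held matches to the Bicoid core and the Pho core.

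At promoters, 8 of the 33 patterning genes (24.2%; 11.1 to 42.3%) had a conservative peak, against 11.3% of all protein-coding genes (1573 of 13968). The interval around the share of the patterning genes includes the background share. The 8 were the maternal genes bcd and cad, the terminal gene fkh, the pair-rule genes h and odd, the Hox gene Dfd, the head gene cnc and the appendage gene Dll. Genes with several start sites have more room for a call, so genes with a single start site were also read apart. Among genes with 1 TSS, 4 of 18 patterning genes were called (22.2%; 6.41 to 47.6%), against 8.13% of all. The other 4 called genes, cad, fkh, h and cnc, are among the 15 patterning genes with several. The share over all protein-coding genes with several is not given, so these 4 have no matching background.

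**Figure D1:**
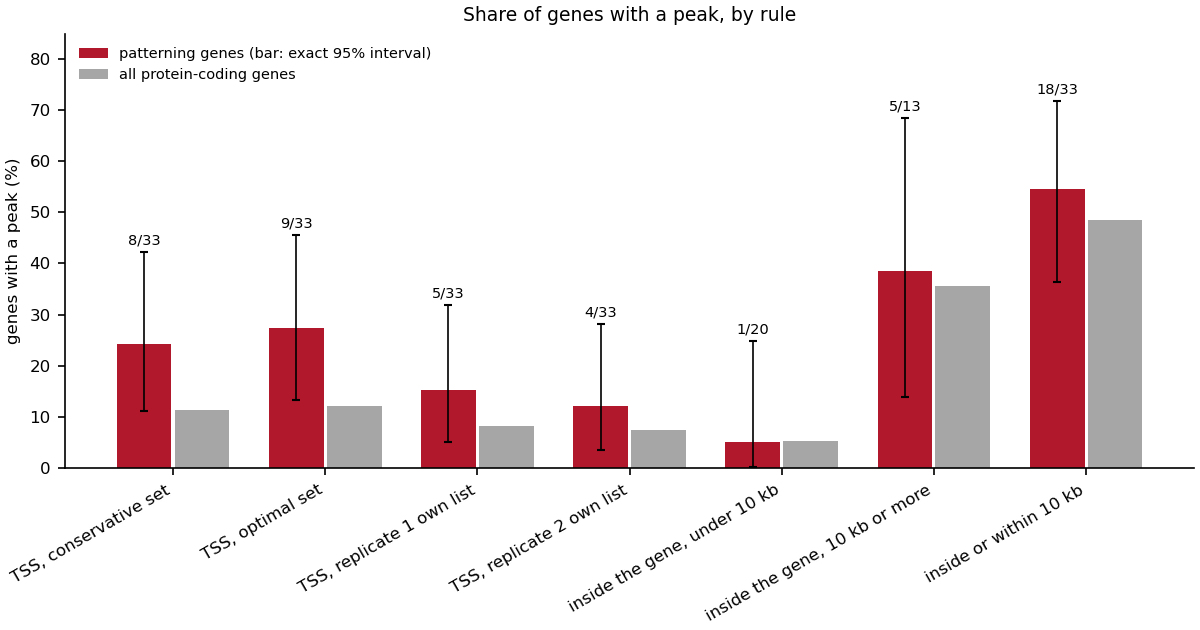
Share of genes with a peak, in percent, for the patterning genes (red bars, left of each pair, with exact 95% intervals and counts) and all protein-coding genes (grey bars). At promoters 24.2% of patterning genes and 11.3% of all genes were called in the conservative set, and the interval, 11.1 to 42.3%, includes the share of all genes. The 2 bars are close for peaks inside genes of either length class.

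None of the 33 patterning genes had a head-to-head neighbour, meaning a protein-coding gene on the other strand whose start lies within 1 kb, while 36.2% of all protein-coding genes had such a neighbour. For 0 of 33 genes the upper end of the interval is 10.6%. Of the 1573 protein-coding genes called at promoters, 59.1% (930; 56.7 to 61.6%) had such a neighbour, and 1 peak can call both genes of such a pair. Among genes without such a neighbour, 8 of 33 patterning genes were called, against 7.21% of all (643 of 8916). This split was chosen after the values had been seen.

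The replicates' own lists gave smaller counts. In replicate 1's own list 5 patterning genes had a promoter peak (bcd, fkh, h, cnc and Dll; 15.2%, 5.11 to 31.9%), against 8.09% of all protein-coding genes. In replicate 2's own list there were 4 (bcd, fkh, Dfd and Dll; 12.1%, 3.40 to 28.2%), against 7.35%. The optimal set held 9 (27.3%; 13.3 to 45.5%), against 12.1%, and the added gene was Antp. Only bcd, fkh and Dll were called at their promoters in all 4 lists, and both intervals of the replicates' own lists include their background shares.

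The strongest promoter peak belonged to bcd, which encodes the homeodomain protein that patterns the anterior of the egg. It lies at chr3R:6759460-6759755, with its summit 142 bp upstream of the TSS and a signal of 142. The matching peaks in the ranked list of each replicate had signals of 78.2 in replicate 1 and 61.7 in replicate 2. It ranked at place 579 of the 3016 conservative peaks, the highest place of any promoter peak of the 33 genes.

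Dll (Distal-less), a homeodomain gene needed for limbs, was close behind. Its peak at chr2R:24814542-24814837 had a signal of 137, with 59.9 in replicate 1 and 70.4 in replicate 2, and its summit lay 132 bp upstream. The peak at fkh (fork head), which encodes a forkhead protein of the gut and terminal regions, lies at chr3R:28585361-28585656 with a signal of 119. Its signals were 53.6 in replicate 1 and 55.8 in replicate 2, and the summit lay 245 bp upstream. These 3 peaks were the only promoter peaks of the patterning genes at or above the median signal of all conservative peaks, and all 3 were in both replicates' own lists.

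The pair-rule gene h, which encodes a bHLH repressor, had the only promoter summit of its class that lay just inside a transcript, 32 bp downstream of the TSS. The peak at chr3L:8675643-8675938 had a signal of 78.1, with 46.1 in replicate 1 and 30.1 in replicate 2, and was in replicate 1's own list alone. The other pair-rule gene, odd (odd skipped), encodes a zinc finger protein. Its summit lay farthest from the start site of all, 419 bp upstream, in a peak at chr2L:3607027-3607322 with a signal of 68.4. Its signals of 29.0 in replicate 1 and 27.1 in replicate 2 were alike, but neither replicate's own list held it.

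Of the maternal genes, cad (caudal), a homeodomain gene of the posterior, had a weaker promoter peak than bcd. Its signal at chr2L:20770413-20770708 was 64.2, with 26.9 in replicate 1 and 37.7 in replicate 2, and the peak was in neither own list. The Hox gene Dfd (Deformed), which specifies maxillary and mandibular segments, had a peak of 63.0 at chr3R:6791363-6791658, with 29.4 in replicate 1 and 36.5 in replicate 2. That peak was in replicate 2's own list alone. Both peaks lay upstream of the start site, by 170 bp at cad and 325 bp at Dfd.

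The head gene cnc (cap-n-collar) encodes a bZIP protein and has 10 annotated start sites, the most of the 33 genes, and 2 of them had a peak. The peak at chr3R:23189941-23190236 had a signal of 74.3, with 50.7 in replicate 1 and 24.0 in replicate 2, and its summit lay 330 bp inside the transcript. This was the largest difference between the replicates towards replicate 1 among the peaks at or inside these genes, 1.08 on the log2 scale. The peak at chr3R:23226891-23227186 had a signal of 51.4, with 29.6 in replicate 1 and 29.2 in replicate 2.

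Together the 9 promoter peaks of the 8 genes had a median signal of 74.3 (51.4 to 142), against 88.3 for all 1365 conservative promoter peaks. Their summits lay a median of 245 bp from the start site (32 to 419 bp), against 124 bp for all promoter summits, and 7 of 9 were upstream, against 70.8% of all. Each was nearer to the patterning gene's own TSS than to any other, and no other gene's TSS lay within 500 bp of any of them. Of the 9 peaks, 3 (33.3%; 7.49 to 70.1%) were in both replicates' own lists, against 44.0% of all promoter peaks. Another 3 were in neither, against 27.1%.

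**Figure D2:**
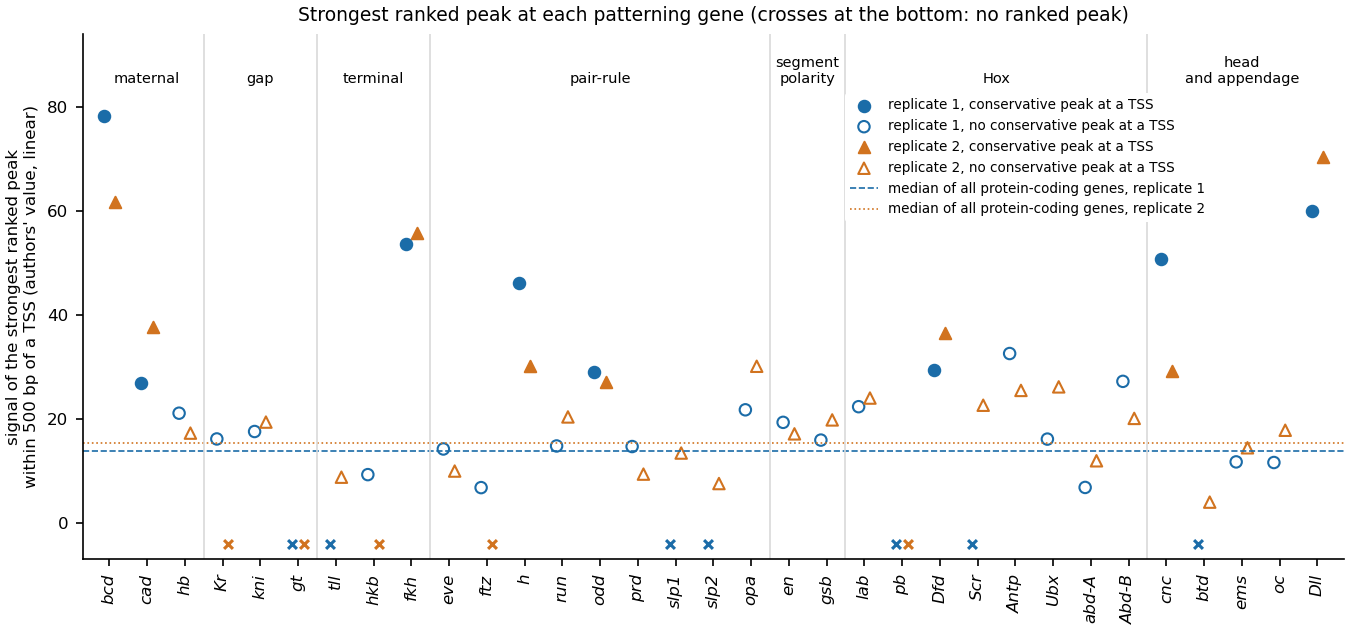
Signal of the strongest ranked peak within 500 bp of a TSS for each of the 33 genes, grouped by class, in replicate 1 (blue circles) and replicate 2 (orange triangles); filled symbols mark the 8 genes with a conservative promoter peak crosses mark genes with no ranked peak, and lines mark the medians of all protein-coding genes (absent peaks counted at 0). The genes bcd, fkh and Dll stand above 50 in both replicates, while gt and pb have a cross in both.

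The ranked lists, which were not thresholded, gave a value for most genes that were not called. In the ranked list made from both libraries, 27 of the 33 genes had a peak within 500 bp of a TSS, against 82.8% of all protein-coding genes. No such peak was found for Kr, gt, hkb, pb, Scr and btd. For gt, a gap gene that encodes a bZIP protein, and pb (proboscipedia), a Hox gene of the mouthparts, each replicate's ranked list also held none. The median signal over the 27 patterning genes with a peak was 37.9 (7.99 to 142), against 31.1 over all protein-coding genes with one.

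Within the replicates, again over genes with a peak, the medians were 20.2 for the patterning genes and 17.0 for all protein-coding genes in replicate 1, and 20.2 and 18.1 in replicate 2. With genes that lack a peak counted at 0, the medians of all protein-coding genes were 13.9 in replicate 1 and 15.3 in replicate 2. In both replicates 18 of the 33 genes stood above these medians, and 36.0% of all protein-coding genes did so. Since the 8 called genes are among them, the 25 that were not called were read apart. Over the 19 of them with a peak in the joint list the median was 25.6 (7.99 to 61.5), against 28.3 for all protein-coding genes with a peak that were not called. Of the 25, 10 stood above the medians with absent peaks at 0 in both replicates. The 36.0% of all protein-coding genes includes called genes. The share over uncalled genes alone was not taken, so these 10 have no matching background.

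All 3015 conservative peaks placed on the arms had an irreproducible discovery rate (IDR), the expected share of peaks ranked as high or higher that do not repeat, of 0.01 or less. This limit does not fully define the set, since it left out another 79 ranked peaks that met it, for a reason not given in the sources used here. For none of the uncalled patterning genes did the strongest ranked promoter peak meet the limit. The genes odd and cnc were called with an IDR of 0.00889 and 0.00943. Antp missed with 0.0104 and a signal of 61.5, 144 bp from a TSS, and was called in the optimal set. The pair-rule gene opa (odd paired), a zinc finger gene, had 0.0212 and a signal of 53.9, and the Hox gene lab (labial) had 0.0341 and a signal of 53.5.

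The gap genes, both segment-polarity factors and 2 of 3 terminal genes had no conservative peak inside them or within 10 kb. Only 48.5% of all protein-coding genes had such a peak, so its absence at a few genes is common. The gap genes Kr (Krüppel), which encodes a zinc finger protein of the central trunk, and gt were without a ranked promoter peak in the joint list. The gap gene kni (knirps), a relative of nuclear receptor genes, had a ranked peak of 35.4, with 17.5 in replicate 1 and 19.4 in replicate 2. The maternal and zygotic gene hb (hunchback) had 41.9, with 21.1 and 17.2. Of the terminal genes, tll (tailless) had 7.99, the lowest joint signal of the 27 genes, and hkb (huckebein) had a ranked peak in replicate 1 alone, of 9.25.

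The segment-polarity transcription factors en (engrailed) and gsb (gooseberry) had joint ranked signals of 34.8 and 24.5. At en the signal was 19.3 in replicate 1 and 17.1 in replicate 2, near the medians of 17.0 and 18.1 over all genes with a peak. The pair-rule genes eve (even skipped), ftz (fushi tarazu) and run (runt) also had no conservative peak within 10 kb, with joint signals of 25.6, 10.2 and 23.3. In all, 15 genes had no conservative peak inside or within 10 kb of them. They were hb, Kr, kni, gt, tll, hkb, eve, ftz, run, opa, en, gsb, pb, Ubx and ems. The other 18 (54.5%) had such a peak, a share near the 48.5% of all protein-coding genes.

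Inside the gene bodies, 6 of the 33 genes held a conservative peak (18.2%; 6.98 to 35.5%), against 9.53% of all protein-coding genes. The patterning genes are longer, with a median of 4.29 kb (1.43 to 103 kb), against 2.16 kb. Split by length, 1 of 20 patterning genes under 10 kb held a peak (5.0%; 0.127 to 24.9%), against 5.23% of all, and 5 of 13 of 10 kb or more did (38.5%; 13.9 to 68.4%), against 35.5% of all. Within each length class the share was therefore close to the background. Per length, the 514 kb of patterning genes held 7 peaks, or 1.36 per 100 kb, against 2.11 per 100 kb over the 91.0 Mb of protein-coding genes.

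The strongest peak inside a patterning gene lay in an intron of Antp (Antennapedia), the Hox gene of the thorax, at chr3R:6920038-6920333. Its signal was 103, with 54.5 in replicate 1 and 45.3 in replicate 2, and its summit lay 12.7 kb downstream of the nearest Antp start site. It was in both replicates' own lists, the only conservative peak inside these genes that was. A peak of 50.1 in the same intron region, at chr3R:6912334-6912629, had 30.5 in replicate 1 and 51.4 in replicate 2 and was in replicate 2's own list alone. Its nearest start site was that of lncRNA:CR43252, at 7.80 kb, against 20.4 kb for Antp. CG46458 overlaps both positions, so neither can be assigned to Antp alone.

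Of the other introns, that of cad held a peak of 82.0 at chr2L:20780824-20781119, with 25.7 in replicate 1 and 51.0 in replicate 2. Its summit was nearer to the start of Pomp, at 6.68 kb, than to that of cad, at 10.1 kb. The difference, -0.99 on the log2 scale, was the largest towards replicate 2, and the peak was in replicate 2's own list alone. An intron of lab, the Hox gene of the head, held a peak of 68.3 at chr3R:6665393-6665688, with 28.1 and 29.4. An intron of Abd-B, the Hox gene of the posterior abdomen, held a peak of 58.8 at chr3R:16948782-16949077, with 32.8 and 26.7. The Abd-B peak lay 2.98 kb from the start of lncRNA:CR46267 and 4.66 kb from that of Abd-B. Neither the lab nor the Abd-B peak was in a replicate's own list. The 7 peaks inside genes are completed by the promoter summits of h and cnc that lay in their transcripts.

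Over the 14 peaks at promoters or inside the genes, the log2 ratio of replicate 1 over replicate 2 had a median of -0.02 (SD 0.54), against 0.13 (SD 0.50) over all conservative peaks. The replicates therefore differed at these peaks by about as much as elsewhere. Of the 14, 4 (28.6%; 8.39 to 58.1%) were in both own lists and 5 in neither, and over all conservative peaks 39.2% were in both.

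**Figure D3:**
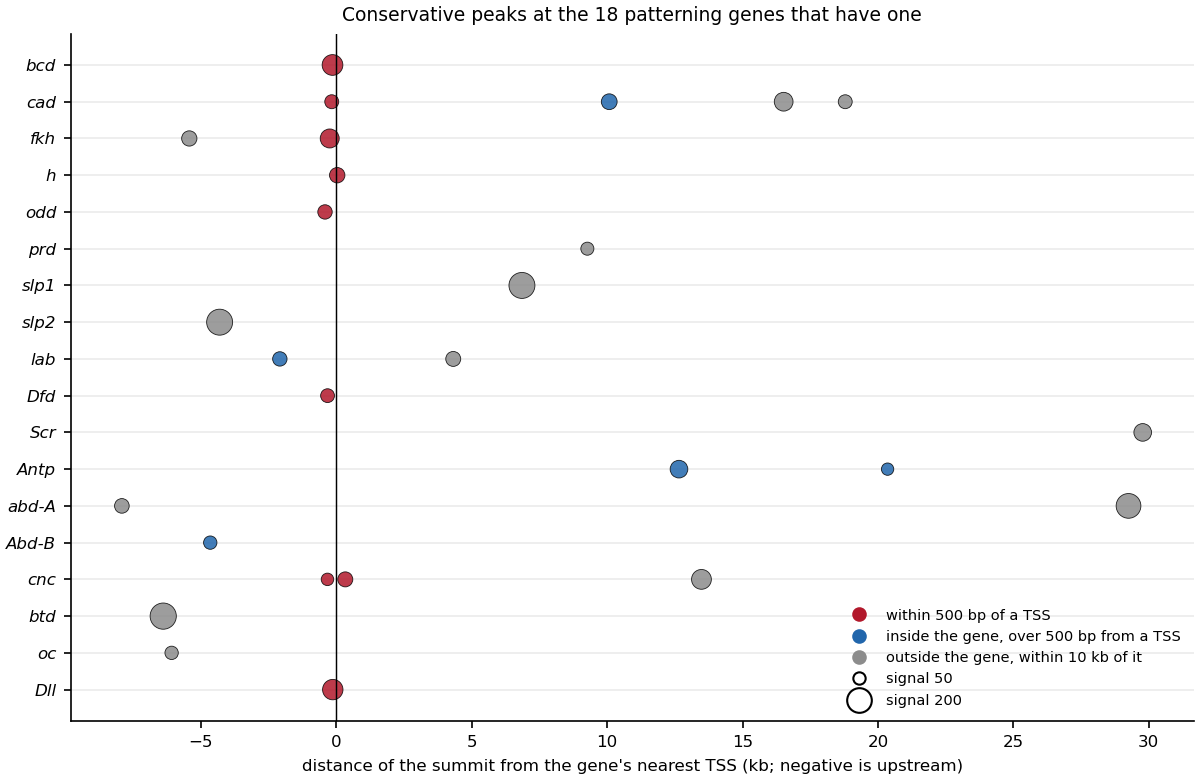
Distance in kb of each conservative summit from the nearest TSS of its gene (negative is upstream), for the 18 patterning genes with a peak inside or within 10 kb of them; circle area is proportional to signal. The largest circles are grey, from 4.31 to 29.3 kb away, at slp1, slp2, abd-A and btd, and the peak between slp1 and slp2 is drawn for both.

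Around the genes, 18 of 33 (54.5%; 36.4 to 71.9%) had a conservative peak inside them or within 10 kb, against 48.5% of all protein-coding genes, a share near the background. These windows held 26 peaks in 1151 kb, or 2.26 per 100 kb, against 2.19 per 100 kb over the chromosome arms. Of the 26, 12 were at a promoter of any gene, 8 in introns and 4 in intergenic DNA, with 1 in a noncoding exon and 1 in a 3′ UTR. By class, 2 of 3 maternal, 0 of 3 gap, 1 of 3 terminal, 5 of 9 pair-rule, 0 of 2 segment-polarity, 6 of 8 Hox and 4 of 5 head and appendage genes had such a peak.

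The 3 strongest of these peaks lay outside the genes. The strongest, with a signal of 226 at chrX:9687644-9687939, lay 6.39 kb upstream of btd (buttonhead), a zinc finger gene of the head, and 397 bp from the start of the noncoding gene lncRNA:CR42657. Its signals were 126 in replicate 1 and 95.6 in replicate 2. At the promoter of btd itself, the joint and replicate 1 ranked lists held no peak and replicate 2 held 1 of 3.97.

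The peak of 222 at chr2L:3832381-3832676 lay between the paired forkhead genes slp1 and slp2 (sloppy paired), 6.85 kb downstream of the slp1 start and 4.31 kb upstream of the slp2 start. It had 117 in replicate 1 and 99.0 in replicate 2, and no other gene's start was nearer than that of slp2. The promoter peaks of the 2 genes in the joint ranked list were far weaker, at 31.4 for slp1 and 9.92 for slp2. In the bithorax complex, the peak of 201 at chr3R:16798701-16798996 had 119 in replicate 1 and 82.0 in replicate 2. It lay beyond the 3′ end of abd-A, 29.3 kb from its nearest start site and 1.75 kb from lncRNA:CR45750. The nearest protein-coding start was that of Glut3, at 10.5 kb. All 3 peaks were in both replicates' own lists and ranked at places 233, 247 and 300 of the conservative set.

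Some flanking peaks lay at other genes. A peak of 116 within 10 kb of cad lay 242 bp from the start of Pomp, and a peak of 63.7 lay in an intron of vari. A peak of 56.1 within 10 kb of prd (paired) lay 8 bp from the start of CG14947. The peak of 129 beyond cnc was in an intron shared by CG46310 and Irk1, the peak of 73.6 beyond lab lay in agt and twr, and the peak of 76.9 upstream of fkh lay in an exon of lncRNA:CR43126, 2.79 kb from the start of lncRNA:CR43440. For these peaks distance alone links them to a patterning gene.

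Other flanking peaks had no such neighbour at their summit. A peak of 102 beyond the 3′ end of Scr (Sex combs reduced), with 57.4 in replicate 1 and 43.6 in replicate 2, lay 1.17 kb from tRNA:Lys-TTT-2-1 and was in both own lists. Its summit was nearer to the start of Dfd, at 26.9 kb, than to that of Scr, at 29.8 kb. A peak of 58.7 lay 6.08 kb upstream of oc (ocelliless), a homeodomain gene of the head, with 34.9 in replicate 1 and 27.4 in replicate 2, and was in replicate 1's own list alone. The 12 peaks outside the genes and their promoters had a median signal of 89.6 (56.1 to 226), and 6 of them were in both own lists. All 26 peaks had a median of 75.6, and 10 (38.5%; 20.2 to 59.4%) were in both own lists, near the 39.2% of all conservative peaks.

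**Figure D4:**
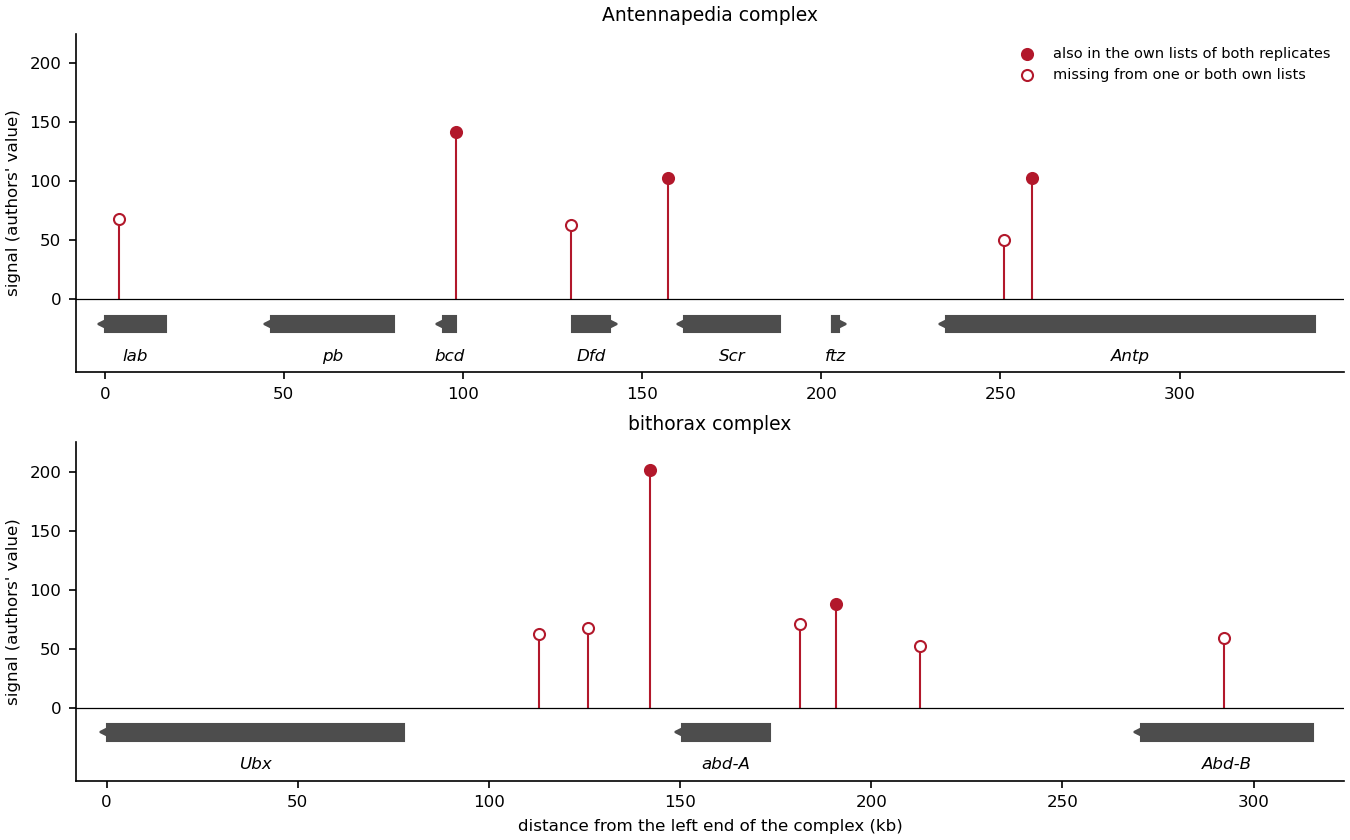
Signal of each conservative peak along the Antennapedia and bithorax complexes, in kb from the left end, with patterning genes as grey bars and arrows in the direction of transcription; filled heads mark peaks in both replicates' own lists. The tallest peak of the Antennapedia complex, at 142, is at bcd and that of the bithorax complex, at 201, lies left of abd-A.

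The 8 Hox genes sit in the Antennapedia and bithorax complexes on arm 3R. The Antennapedia complex (chr3R:6661427-6999228, 338 kb), which also holds bcd and ftz, had 6 conservative peaks, or 1.78 per 100 kb. The bithorax complex (chr3R:16656623-16972236, 316 kb) had 7, or 2.22 per 100 kb, and arm 3R as a whole had 2.15. Replicate 1's own list held 4 peaks in the Antennapedia complex and 7 in the bithorax complex, and replicate 2's own list held 5 and 3. Per 100 kb these were 1.18 and 2.22 in replicate 1, against 1.35 on arm 3R in the same list. In replicate 2 they were 1.48 and 0.95, against 1.23. Each complex was thus above its arm in one replicate and below it in the other. The Hox genes themselves held 4 peaks in 338 kb, or 1.19 per 100 kb, and the other patterning genes 3 in 176 kb, or 1.71 per 100 kb.

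In the bithorax complex none of the 7 peaks was at a promoter of Ubx (Ultrabithorax), abd-A or Abd-B. Beside the peak of 201, a peak of 62.4 lay in an intron of lncRNA:bxd, 35.2 kb from the Ubx start site, and a peak of 67.2 lay 887 bp from lncRNA:CR44945. The nearest protein-coding start was that of CG31275, at 18.25 kb, for the peak of 62.4 and that of Glut3, at 5.70 kb, for the peak of 67.2. Peaks of 70.6, 88.1 and 52.4 lay in introns of lncRNA:iab8 and MSAmiP, between abd-A and Abd-B, and the peak of 58.8 lay in Abd-B. Those of 201 and 88.1 were in both replicates' own lists. For the peak of 52.4, replicate 2's ranked list held no overlapping peak.

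Abd-B also had a peak that the joint lists did not contain. At chr3R:16969925-16970214, in an intron 1496 bp from an Abd-B start site, replicate 1's own list held a peak of 70.6 and replicate 2's own list an overlapping peak of 42.8. Neither ranked list made from both libraries had a peak there. Of the 1206 peaks of replicate 1's own list that overlapped one of replicate 2's, this was the case for 2, the other lying in CG9663. Why was not tested. The optimal set further held a peak of 72.0 in a coding exon of Ubx, nearest to the start of modSP and also present in replicate 1's own list at 44.3, and peaks of 53.5 in abd-A and 54.1 in Abd-B.

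Other genes of axis patterning were read by the same promoter rule. Of 69 maternal and terminal pathway genes, related transcription factors and Hox cofactors, segment-polarity signalling genes and dorsoventral transcription factors, 8 were called (11.6%; 5.14 to 21.6%), against 11.3% of all protein-coding genes. By class there were 3 of 16 maternal and terminal genes, 1 of 22 related factors and cofactors, 2 of 15 signalling genes and 2 of 16 dorsoventral factors. The strongest was gro (groucho), a corepressor used by h and other patterning repressors, with a signal of 300, 138 in replicate 1 and 156 in replicate 2.

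The signalling genes sgg (shaggy), a kinase of the Wingless pathway, and nkd (naked cuticle), an antagonist of that pathway, had signals of 249 and 197. The heart gene tin (tinman), a homeodomain gene of the dorsal mesoderm, had 206, with 120 in replicate 1 and 90.3 in replicate 2. Each of these 4 was in both replicates' own lists and stood above all promoter peaks of the 33 patterning transcription factor genes. Stat92E, the transcription factor of the JAK/STAT pathway, had 86.6, eyg (eyegone), a Pax family gene, 61.3 and the dorsal GATA factor gene pnr (pannier) 54.9. The peak of 111 near orb, which encodes an RNA-binding protein of the oocyte, lay nearer to the start of Cdc16, at 69 bp, than to that of orb, at 276 bp.

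The 14 peaks at promoters or inside the patterning genes were searched for 8 motifs, on both strands within 100 bp of the summit. Motifs can share letters, as ATGGC (the reverse complement of GCCAT) does with TTTATGG and CATAAAAA does with the reverse complement of TTTATGG, and each match was counted on its own. GCCAT, the core bound by the Polycomb recruiter Pleiohomeotic (Pho), was found at 6 of 14 (42.9%; 17.7 to 71.1%), against 29.0% of all 3015 summits and 32.0% of windows of the same length at all protein-coding start sites. The interval includes both shares. It was at the promoter peaks of fkh, odd, cad and Dfd and in the introns of lab and Antp, where it lay at the weaker of the 2 peaks, and the odd window held 3 matches.

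CAGGTAG, the heptamer of the early activator Zelda, GAGAGAG, a repeat bound by GAGA factor, and TAATCC, the core bound by Bicoid, were at none of the 14. The shares over all summits were 0.896%, 5.31% and 5.41%, and over start site windows 1.12%, 3.74% and 6.37%, so few matches could be seen in 14 windows. TTTATGG, a Caudal-type motif, and TATCGATA, the motif of DREF, were both at the cnc peak with a signal of 74.3. All summits held them at 4.51% and 2.29%, and start site windows at 3.32% and 7.29%.

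TAATTA, a homeodomain motif, was at the Dfd promoter, and CATAAAAA, a Hunchback-type motif, at the cad intron peak, against 13.9% and 3.32% of all summits and 9.64% and 2.21% of start site windows. In all, 8 of the 14 held at least 1 of the 8 motifs, against 51.1% of all summits. A match says only that the letters are present. The median share of G and C over the 14 windows was 46.0% (34.8 to 64.7%), against 37.8% over all summits, with quartiles of 32.8% and 45.3%. Of the 14 peaks 9 were at promoters, against 1365 of all 3015. No share of G and C over all promoter summits is given, so the difference has no matching background.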

How the data were processed

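Peak lists on the dm6 assembly were analysed from 2 libraries that the labels call biological replicates of 1 group. Per the deposited text files they are ranked and thresholded peaks by irreproducible discovery rate (IDR). No aligner or peak caller is named (not given in the sources used here). Each peak has a deposited signal, whose unit the authors did not state. The deposited score rescales the IDR up to 1000, and the lowest score in thresholded lists was 830. The deposited ranked lists hold the −log10 of the global IDR. Control libraries were not analysed here, and depth is unknown.

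Summits on chromosome arms (3015 of 3016 conservative peaks) were placed on the Ensembl BDGP6 annotation (release 115) and the Release 6 genome with Python 3.11.15, numpy 2.4.6, pandas 2.3.3, scipy 1.17.1 and matplotlib 3.10.9, and the scripts were checked on simulated data. Replicate signals are those of the strongest overlapping peak, by at least 1 bp, in each replicate's own ranked list. Where several ranked peaks lay within 500 bp of a start site, the strongest was used. A gene body runs from annotated start to end, and flanks add 10 kb on both sides. The 33 genes, the other gene lists and the motifs were chosen with earlier results of these data known. The text names all 33 genes and other patterning genes with a promoter peak. For peaks inside or within 10 kb of the 33 genes, the gene with the nearest start is named where it is another gene. Alternatives tried were other peak sets, each replicate alone, and other signal, IDR and distance limits.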

Additional observations from a re-analysis of the deposited data

How the results depend on the processing

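The promoter count of 8 patterning genes kept within 1.5 times under the optimal set (9, against 12.1% of all protein-coding genes), an IDR of 0.05 (11, 17.8%), any peak base in place of the summit (8, 12.3%), a window of 1000 bp (8, 13.8%) and calling only the nearest gene (8, 8.58%), beside 11.3% with the settings reported. It was 5 with a window of 250 bp (8.73% of all), 3 with peaks at or above the median signal (6.78%), and 4 to 5 with 1 replicate left out, that is, in the other replicate's own list (7.35% and 8.09%). The share over all genes moved with these settings too. Genes with a peak inside numbered 6, beside 9.53% of all protein-coding genes. At an IDR of 0.05 they numbered 7 (18.6% of all), and at or above the median signal 1 (5.39%). They numbered 3 without replicate 1 (5.96%) and 5 without replicate 2 (6.67%). Peaks inside the genes numbered 7, against 12 in the optimal set, 20 at an IDR of 0.05, 1 at or above the median signal and 4 to 6 without a replicate. Peaks within 10 kb numbered 26, against 54 at an IDR of 0.05, 10 at or above the median signal, 40 within 20 kb and 15 to 17 without a replicate. The lists and windows behind these peak counts differ in size. No rate over all protein-coding genes stands beside them, so their changes show nothing particular to the patterning genes. Of the 14 peaks at promoters or inside genes, 4 overlapped peaks in both replicates' own lists, and all 14 did so in the ranked lists. Motif matches fell to 5 of 14 peaks within 50 bp, against 8. The other patterning genes at promoters numbered 8, against 19 at an IDR of 0.05, where the share of all protein-coding genes was 17.8% (6 in each replicate alone). The bithorax complex held 7 peaks, against 8 in the optimal set and 3 to 7 without a replicate. The Antennapedia complex held 6, against 9 in the optimal set and 4 to 5 without a replicate. Per 100 kb, the optimal set held 2.535 peaks in the bithorax and 2.66 in the Antennapedia complex, against 2.38 on arm 3R. Without replicate 1, cad, h, odd and cnc were not called at promoters, and without replicate 2, cad, odd and Dfd were not. The cause of these shifts was not tested. In all, 19 of 50 alternatives moved a count by over 1.5 times. No paired analysis was possible because both libraries belong to 1 group.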
